A study of Drosophila melanogaster with 28 samples.

Results

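The 8 anti-HMR peak lists of SL2 cells were compared between 4 lists from cells expressing C-terminally truncated HMR and 4 lists from cells expressing full-length HMR, out of 18 peak lists and 28 samples in the series. SL2 is an embryonic cell line of Drosophila melanogaster. Members were chosen by antibody and construct alone, and all 8 lists were used. HMRdC-tg cells carried the construct pMT HMR-dC-FLAG-HA, whose product lacks the HMR C-terminus. HMRwt-tg cells carried pMT HMR-FL-FLAG-HA, which encodes the whole protein. Both cell types were stably transfected together with Myc-tagged LHR, selected with hygromycin B, and induced with 250 µM CuSO4 for 20 to 24 h, since pMT is a copper-inducible metallothionein promoter. Both also kept their own, untagged HMR. The rat antibody 2C10 was raised against HMR and was used on both kinds of cells, so that these lists combine endogenous and transgenic HMR, whereas an anti-FLAG list reports the transgene. No list from untransfected or uninduced cells was analysed here, and whether each line was 1 clone is not given in the sources used here. The study describes its anti-FLAG libraries as biological replicates, and each of these anti-HMR lists shares its chromatin sample with one of them. The p-values below measure the spread between these chromatin samples.

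HMR and LHR are chromatin proteins whose incompatibility kills or sterilises hybrids between Drosophila melanogaster and its sibling species. HMR binds LHR through its C-terminal BESS domain and, through LHR, reaches HP1a, the protein that coats pericentromeric heterochromatin and much of chromosome 4. A further set of HMR sites lies on the chromosome arms, where it meets insulator proteins such as CP190, Su(Hw) and BEAF-32 at gypsy-like insulators and promoters. The comparison asks whether the total HMR profile, with endogenous HMR present, differs when the transgene lacks the C-terminus.

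A peak was an interval of 200 bp, apart from 1 peak of 92 bp in HMRdC-tg replicate 3, and the lists held a chromosome, a start and an end with no score. Sequences are shown for 5 regions called in all 8 lists and for 2 regions called unequally, because they hold the short motifs that the lists were searched for. Letters are the plus strand of dm6 (Release 6) in a window of 200 bases around the median peak centre, and none of these windows overlapped an annotated UTR. Capitals mark a match on either strand to TGCATA, found in sites of the zinc-finger insulator protein Su(Hw); to TATCGATA, the DNA replication-related element (DRE) bound by DREF; to CGATA, bound by BEAF-32 and contained in every DRE; to GGTCACAC, Motif 1, bound by M1BP; or to GAGAG, bound by the GAGA factor. Of all 685007 windows of this length on the assembled chromosomes, 12.4% held TGCATA, 0.562% TATCGATA, 21.4% CGATA, 0.433% GGTCACAC and 21.5% GAGAG. A match describes the letters only.
Region beside Loxl1, chr3R:31458168-31458367, plus strand: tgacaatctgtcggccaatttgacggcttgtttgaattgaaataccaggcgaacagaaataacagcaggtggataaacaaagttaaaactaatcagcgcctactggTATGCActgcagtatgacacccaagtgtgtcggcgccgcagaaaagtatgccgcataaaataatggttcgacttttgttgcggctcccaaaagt
Region nearest l(3)80Fj, chr3L:28091229-28091428, plus strand: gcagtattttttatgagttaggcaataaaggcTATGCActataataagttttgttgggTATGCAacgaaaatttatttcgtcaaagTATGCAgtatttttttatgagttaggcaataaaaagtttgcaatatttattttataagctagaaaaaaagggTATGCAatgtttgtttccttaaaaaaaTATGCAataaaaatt
Region at pths, chr2L:21143008-21143207, plus strand: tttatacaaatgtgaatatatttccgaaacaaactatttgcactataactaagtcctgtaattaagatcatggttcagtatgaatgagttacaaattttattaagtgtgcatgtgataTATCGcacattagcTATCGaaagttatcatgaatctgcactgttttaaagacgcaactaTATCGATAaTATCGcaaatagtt
Region at PlexA, chr4:1027154-1027353, plus strand: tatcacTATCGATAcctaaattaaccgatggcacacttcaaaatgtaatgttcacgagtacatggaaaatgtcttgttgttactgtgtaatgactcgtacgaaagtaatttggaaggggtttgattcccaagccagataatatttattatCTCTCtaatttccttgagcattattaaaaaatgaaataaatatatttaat
Region at RpL37-1, chrX:15139371-15139570, plus strand: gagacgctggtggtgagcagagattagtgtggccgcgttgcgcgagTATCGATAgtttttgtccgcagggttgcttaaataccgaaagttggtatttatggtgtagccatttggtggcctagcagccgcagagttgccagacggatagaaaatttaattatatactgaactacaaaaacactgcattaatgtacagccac
Region in FucTC, chrX:23009550-23009749, plus strand: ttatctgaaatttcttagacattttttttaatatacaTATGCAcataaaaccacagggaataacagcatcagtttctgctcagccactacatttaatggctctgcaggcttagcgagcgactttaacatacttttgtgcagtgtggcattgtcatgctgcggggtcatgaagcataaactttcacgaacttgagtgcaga
Region at CG3651, chr2L:22121047-22121246, plus strand: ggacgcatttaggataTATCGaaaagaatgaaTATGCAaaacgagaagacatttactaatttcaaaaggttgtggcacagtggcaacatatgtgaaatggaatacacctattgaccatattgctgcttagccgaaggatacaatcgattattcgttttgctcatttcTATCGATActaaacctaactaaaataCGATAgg

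The region beside Loxl1 and the region nearest l(3)80Fj stood near the top of all 8 lists and held 1 and 5 copies of TGCATA. The regions at pths, PlexA and RpL37-1 each held a DRE next to a transcript start, in pericentromeric 2L, on chromosome 4 and on X. The region in FucTC was called in 3 HMRdC-tg lists and no HMRwt-tg list, and the region at CG3651 in 3 HMRwt-tg lists and no HMRdC-tg list. The region at pths, a DEAD-box helicase gene, was at lines 237, 363, 242 and 397 in HMRdC-tg lists and 272, 339, 174 and 319 in HMRwt-tg lists. The region at RpL37-1, a large ribosomal subunit gene, was at lines 312, 843, 1386 and 606 in HMRdC-tg lists and 508, 619, 127 and 591 in HMRwt-tg lists. The lines of the other 5 are given with the results below.

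The lists differed widely in length within each construct. HMRdC-tg lists held 3184, 1640, 1958 and 2066 peaks, and HMRwt-tg lists held 2858, 1150, 9049 and 1496 peaks, in the order of replicates 1 to 4. The means were 2212 ± 673 peaks in HMRdC-tg and 3638 ± 3682 peaks in HMRwt-tg (SD, n = 4 each), and the groups overlapped (exact two-sided permutation test, p = 0.771). With 4 lists against 4, no p can be lower than 0.0286. The depth in reads behind each list is unknown. Replicate numbers follow the order of the samples in the series. The labels name no pairs, but replicates of the same number have neighbouring input numbers, so shared preparation is not known. Tests are unpaired unless stated otherwise.

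**Figure D1:**
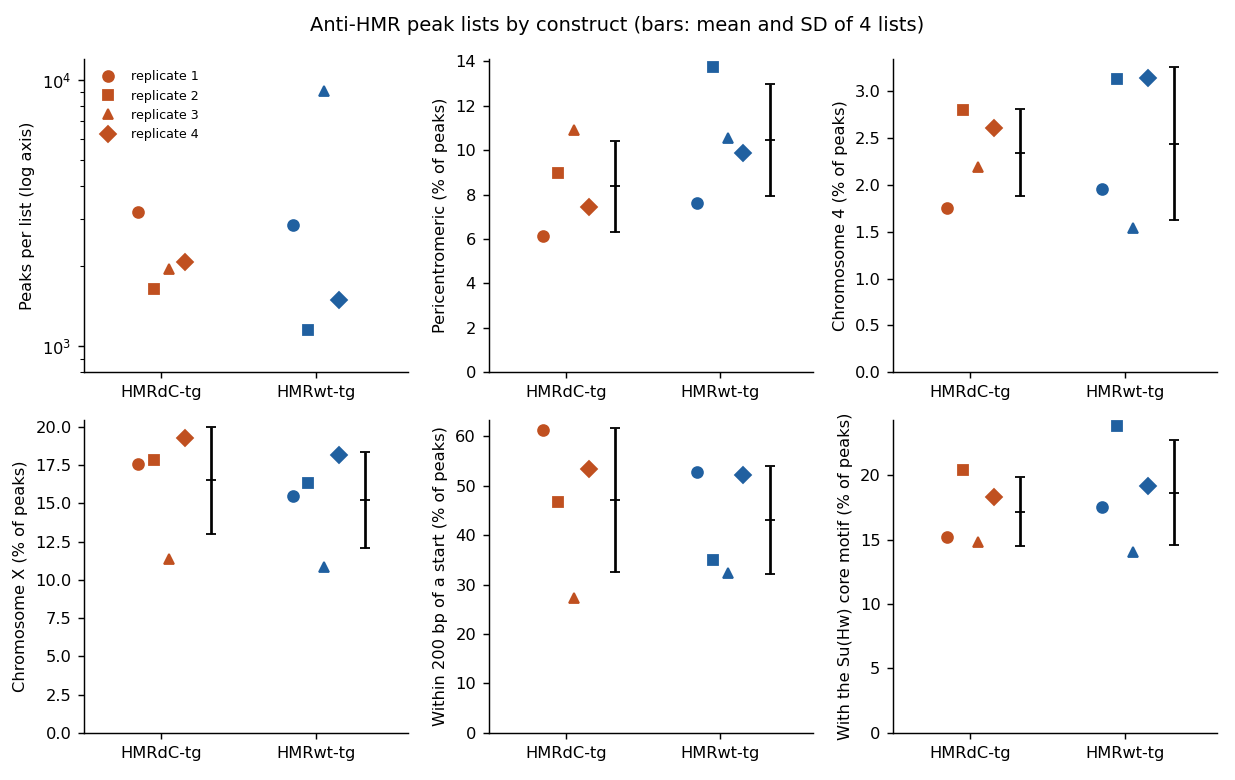
Values per anti-HMR list for HMRdC-tg (left) and HMRwt-tg (right): number of peaks on a log axis, and the percentage of peaks in pericentromeric chromatin, on chromosome 4, on X, within 200 bp of a transcript start, and with the Su(Hw) core motif. Each symbol is 1 list, the bars in the percentage panels are the mean and SD of 4 lists, and the constructs overlap in all 6 panels, with X shares from 11.3% to 19.3% in HMRdC-tg and from 10.8% to 18.2% in HMRwt-tg.

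Peaks that overlapped by 1 bp or more in any of the 8 lists were merged into 11083 regions of up to 639 bp. Most regions were called once: 7629 regions (68.8%) were in 1 list, and 5970 of these came from HMRwt-tg replicate 3 and 1117 from HMRdC-tg replicate 3. These 2 lists also held the smallest shares of X peaks. Regions found in HMRdC-tg replicate 3 alone made up 57.0% of that list, and regions found in HMRwt-tg replicate 3 alone made up 66.0%. In the other 6 lists this share was between 0.668% and 6.87%.

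Lists of different constructs shared about as many regions as lists of the same construct. To compare lists of unequal length, the first 1150 lines of each were taken, since the line order served as the rank of a peak. A list shared a median of 68.4% of its regions with a list of the other construct (32.3% to 83.1%, 32 ordered pairs) and 64.9% with a list of its own (35.6% to 80.7%, 24 ordered pairs). HMRdC-tg replicate 3 shared only 32.3% to 38.9% with the other 7 lists, 4 of which are HMRwt-tg lists. Without it the medians were 72.0% between constructs and 70.1% within a construct. The closest pair came from different constructs, HMRdC-tg replicate 4 and HMRwt-tg replicate 4, which shared 83.1%.

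**Figure D2:**
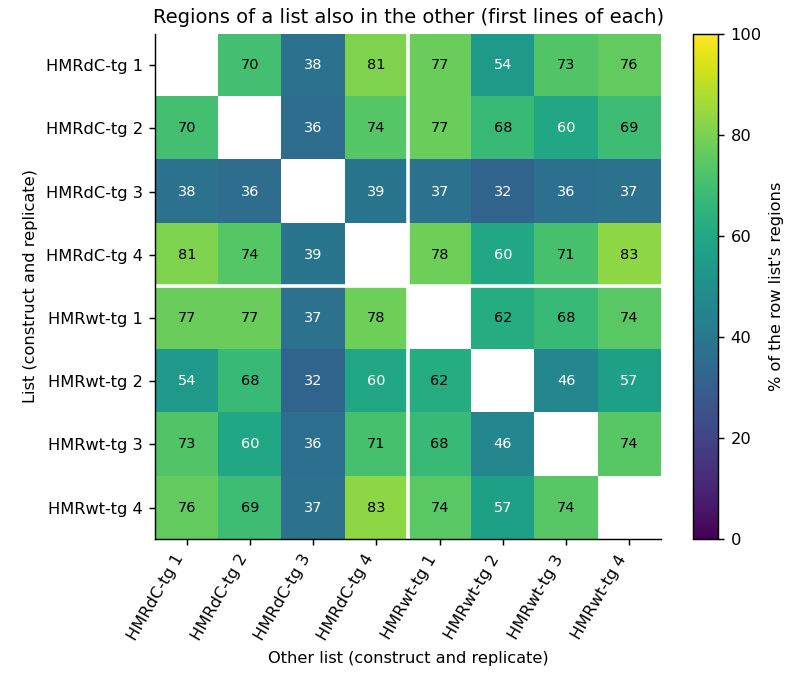
Percentage of the regions in the first 1150 lines of a list (row) that another list (column) also held in its first 1150 lines, with HMRdC-tg lists above and left of HMRwt-tg lists. The row and column of HMRdC-tg replicate 3 hold values from 32.3% to 38.9%, and the block between constructs reaches 83.1%.

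No region was called in every list of one construct and in no list of the other. Of 11083 regions, 0 (0%) were in all 4 HMRdC-tg lists and no HMRwt-tg list, and 0 (0%) were in all 4 HMRwt-tg lists and no HMRdC-tg list. Fisher's exact test adds nothing to these counts: its smallest p was 0.143, 0 regions had an unadjusted p under 0.05, and even 4 lists against 0 give no less than 0.0286, too large to pass adjustment over 11083 regions for single regions. Where the count was eased to at least 3 lists against none, 3 regions (0.0271%) were called with HMRdC-tg and 14 (0.126%) with HMRwt-tg.

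Regions found repeatedly with one construct were found with the other. All 4 HMRdC-tg lists called 541 regions, and 521 of them (96.3%) were in 3 or 4 HMRwt-tg lists. All 4 HMRwt-tg lists called 748 regions, and 723 of them (96.7%) were in 3 or 4 HMRdC-tg lists. In pericentromeric chromatin this held for 77 of 77 regions called in every HMRdC-tg list and for 104 of 108 called in every HMRwt-tg list. On chromosome 4 it held for 25 of 26 and for 32 of 32. The 387 regions called in all 8 lists are called core regions below. Without HMRdC-tg replicate 3, 714 regions were called in all 7 remaining lists, so that this list set the size of the core. Within the core, the mean peak centres of HMRdC-tg and HMRwt-tg lay a median of 15 bp apart, and 92.8% lay within 50 bp. Centres of any pair of single lists of the same construct lay a median of 29 bp apart. These are not means of 4 lists, so the 29 bp cannot be set against the 15 bp.

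**Figure D3:**
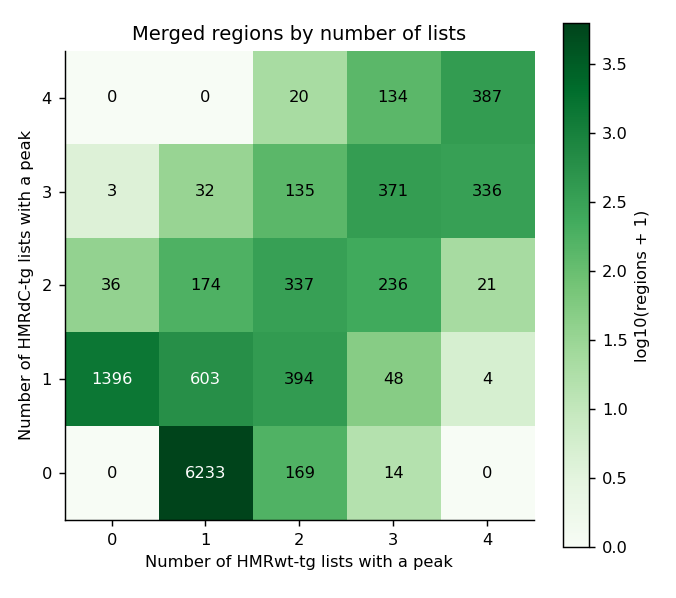
Number of merged regions by how many of the 4 HMRdC-tg lists (vertical axis) and how many of the 4 HMRwt-tg lists (horizontal axis) called them, coloured by log10 of the number plus 1. The 4 against 0 corners hold 0 regions each, the 4 against 4 corner holds 387, and 6233 regions were in 1 HMRwt-tg list alone.

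The distribution over chromosomes did not differ between constructs beyond the spread between lists. Pericentromeric territories of chromosomes 2 and 3 held 6.16%, 8.96%, 10.9% and 7.45% of peaks in the HMRdC-tg lists, against 7.63%, 13.7%, 10.6% and 9.89% in the HMRwt-tg lists. The values overlapped, with means of 8.38% ± 2.05 in HMRdC-tg and 10.5% ± 2.52 in HMRwt-tg (SD, n = 4 each) and a difference of -2.08 percentage points (exact two-sided permutation test, p = 0.257, adjusted p = 0.617 over 9 classes). The 95% Wilson intervals, which cover counting error only, were 5.37% to 7.04% for HMRdC-tg replicate 1 and 11.9% to 15.8% for HMRwt-tg replicate 2, the lists at the low and high end. The difference was -0.986 percentage points without HMRwt-tg replicate 2, and -0.286 over the peaks of regions called in at least 2 lists (exact two-sided permutation test, p = 0.800). In the first 1150 lines of each list the 4 HMRdC-tg lists had 9.83%, 10.0%, 12.1% and 9.57%, against 11.6%, 13.7%, 9.57% and 10.2% in the HMRwt-tg lists. The gap in the means thus narrowed to -0.891 percentage points (exact two-sided permutation test, p = 0.543).

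The constructs also overlapped in each of the 4 territories, on the mostly heterochromatic chromosome 4 and on X. Chromosome 4 held 1.76%, 2.80%, 2.196% and 2.61% of peaks in HMRdC-tg lists, against 1.96%, 3.13%, 1.54% and 3.14% in HMRwt-tg lists (exact two-sided permutation test, p = 0.800). X held 17.6%, 17.8%, 11.3% and 19.3% in HMRdC-tg lists, against 15.5%, 16.3%, 10.8% and 18.2% in HMRwt-tg lists (exact two-sided permutation test, p = 0.543). The 2 low values were those of replicate 3 of each construct. The raw p for single territories lay between 0.257 on 2R and 3R and 0.343 on 3L, and all adjusted p were at least 0.617.

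Gene annotation and motif content overlapped as well. Peaks within 200 bp of a transcript start made up 61.2%, 46.6%, 27.2% and 53.3% of HMRdC-tg lists, against 52.7%, 34.9%, 32.3% and 52.1% of HMRwt-tg lists (exact two-sided permutation test, p = 0.657). Peaks near a start lay mostly upstream of it, in 73.4% to 90.4% of cases in HMRdC-tg lists and 75.8% to 90.8% in HMRwt-tg lists. TGCATA was in 14.8% to 20.4% of peaks of HMRdC-tg lists and 14.0% to 23.8% of peaks of HMRwt-tg lists (exact two-sided permutation test, p = 0.600). CGATA was in 28.8% to 45.1% and 31.0% to 40.2% of peaks of HMRdC-tg and HMRwt-tg lists (exact two-sided permutation test, p = 0.657). Of 6 annotation classes and 5 motifs, the lowest raw p was 0.200, for annotated transposable elements (exact two-sided permutation test, adjusted p = 0.971).

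Pericentromeric peaks were concentrated at the top of the lists of both constructs. In the first 100 lines they made up 28.0% ± 7.53 in HMRdC-tg lists and 32.8% ± 14.8 in HMRwt-tg lists (SD, n = 4 each). By 500 lines these means were 15.2% ± 1.41 in HMRdC-tg and 17.3% ± 2.75 in HMRwt-tg, and by 1000 lines 11.1% ± 1.04 in HMRdC-tg and 11.7% ± 1.12 in HMRwt-tg. The highest value, 54.0% of the first 100 lines, was that of HMRwt-tg replicate 1, and the lowest, 20.0%, that of HMRdC-tg replicate 3. TGCATA was in 25.8% ± 6.75 of peaks in HMRdC-tg and 25.3% ± 7.80 in HMRwt-tg lists over the first 100 lines and 18.4% ± 3.45 in HMRdC-tg and 20.0% ± 4.05 in HMRwt-tg lists over 1000. X peaks ran the other way, with 7.75% ± 3.77 in HMRdC-tg and 5.00% ± 2.45 in HMRwt-tg lists over the first 100 lines, below the shares over whole lists.

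**Figure D4:**
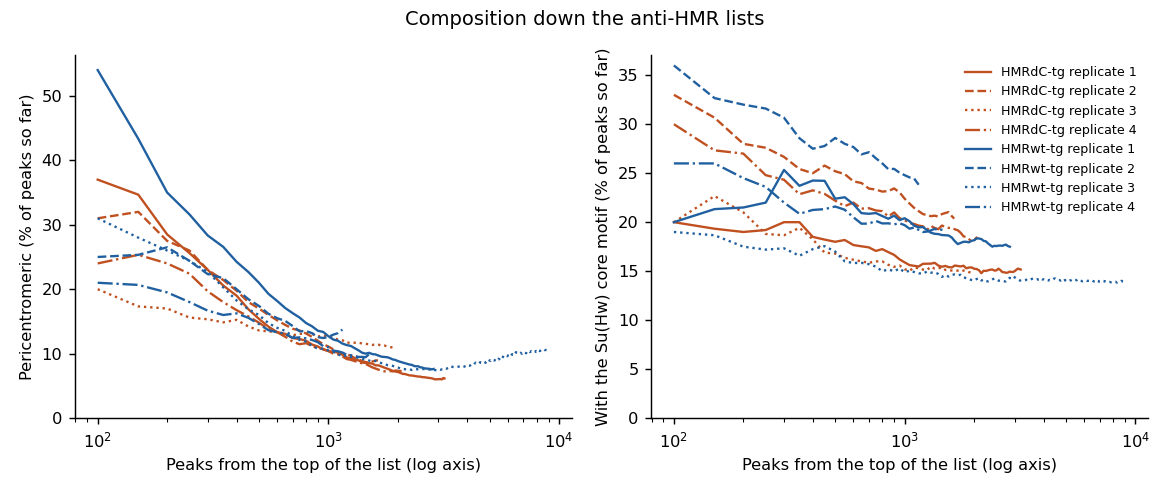
Percentage of peaks, from the top of each list to the line on the log axis, that were pericentromeric (left) or held the Su(Hw) core motif (right), for the 4 HMRdC-tg and the 4 HMRwt-tg lists. All 8 pericentromeric curves lie between 20.0% and 54.0% at 100 peaks and between 10.4% and 12.7% at 1000, and the constructs interleave.

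The core regions were densest on chromosome 4. It held 22 of them, or 16.3 per Mb of assembled sequence, against 3.98 per Mb in the pericentromeric territories (73 regions), 2.72 per Mb on the arms of 2 and 3 (247 regions) and 1.87 per Mb on X (44 regions). One core region lay on Y. Within the pericentromeric territories the density was 6.76 per Mb on 2L, 4.82 on 2R, 3.60 on 3L and 1.71 on 3R. Only reads that mapped with a quality of at least 2 were kept by the authors, so these densities concern the mappable part of each class.

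Core regions in the pericentromeric territories, which were set by coordinates alone, and on chromosome 4 lay mostly at transcript starts. The share of all windows near a start is not given here. Of 73 pericentromeric core regions, 60 (82.2%) lay within 200 bp of a transcript start, as did 14 of 22 (63.6%) on chromosome 4, against 98 of 247 (39.7%) on the arms and 19 of 44 (43.2%) on X. The motifs differed along the same line. TGCATA was in 73 of 247 arm regions (29.6%), where 12.9% of arm windows held it, and in 10 of 73 pericentromeric regions (13.7%), where 10.1% of windows held it. CGATA was in 34 of 73 pericentromeric regions (46.6%, windows 23.4%) and 12 of 22 regions on chromosome 4 (54.5%, windows 25.0%), against 70 of 247 on the arms (28.3%, windows 20.6%). DRE was in 7 of 73 pericentromeric regions (9.59%, windows 0.852%). GAGAG was in 50 of 387 core regions (12.9%), below its share of all windows. Core regions are sites of the same libraries and not replicates, so these counts are a description.

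Regions called once and regions called repeatedly differed in the same features. Transcript starts were at 18.4% of the 7629 regions in 1 list and at 57.5% of the 808 regions in 2 lists, and at 49.4% of the core. The pericentromeric share was 12.5% in 1 list, 3.40% in 6 lists and 18.9% in all 8. TGCATA was in 13.2% of regions in 1 list and 24.5% of the core, whereas GAGAG was in 23.2% and 12.9%. The regions in 1 list are largely those of replicate 3 of each construct, as given above.

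**Figure D5:**
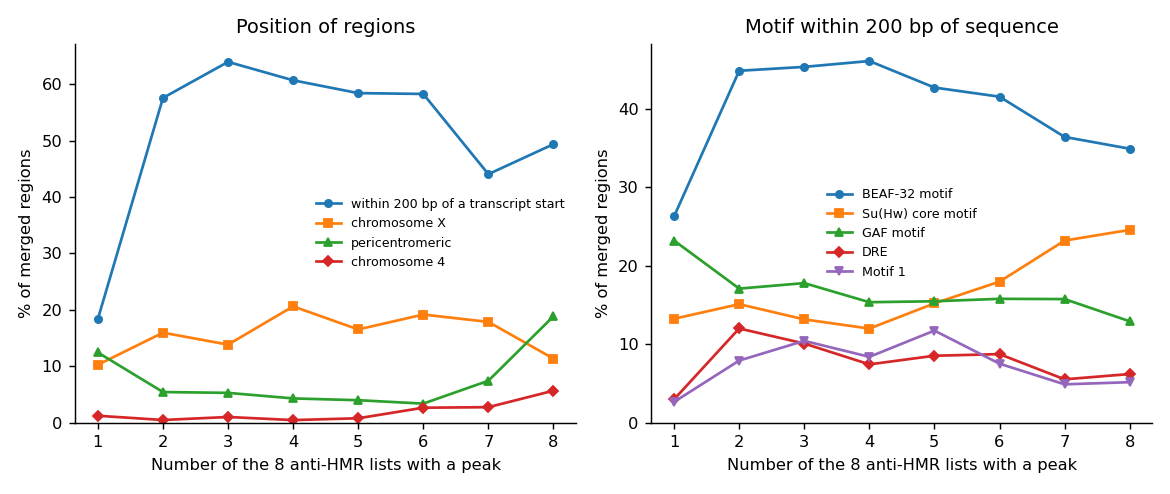
Percentage of merged regions with a given position (left) or motif within 200 bp of sequence (right), by the number of the 8 anti-HMR lists that called them. Pericentromeric regions make up 18.9% of the core and 3.40% of regions in 6 lists, and the Su(Hw) core motif is in 13.2% of regions in 1 list and 24.5% of the core.

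The same few sites headed all 8 lists. A region of pericentromeric 2R (dm6 chr2R:1243448-1243729) was line 1 in every list, lies between genes 20551 bp from the start of CG40191, and holds TGCATA. The region on the arm of 3R (chr3R:31458067-31458412), beyond the 3′ end of the lysyl oxidase gene Loxl1 and 1629 bp from its start, was line 2 in every list. The region nearest l(3)80Fj (chr3L:28091217-28091469), with 5 copies of TGCATA, was at lines 3, 3, 3 and 5 in HMRdC-tg lists and lines 3, 3, 8 and 4 in HMRwt-tg lists. The region 3560 bp from alpha-Est10, an esterase gene (chr3R:7485074-7485307), was at lines 6, 5, 13 and 4 in HMRdC-tg lists and 4, 4, 12 and 7 in HMRwt-tg lists. The fifth, 7401 bp from dock, which encodes an adaptor protein of axon guidance (chr2L:833233-833507), was at lines 13, 6, 7 and 3 in HMRdC-tg lists and 13, 6, 10 and 6 in HMRwt-tg lists. None of these 5 regions lay within 200 bp of a transcript start, and 4 of the 5 held TGCATA.

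The starts of RpL15 and RpL5, in pericentromeric chromatin, stood within the first 28 lines of all 8 lists. The promoter of RpL15 (chr3L:27267062-27267288, 80 bp from the start) was at lines 4, 9, 5 and 11 in HMRdC-tg lists and 5, 10, 6 and 21 in HMRwt-tg lists. The region over the start and 5′ UTR of RpL5 (chr2L:22536645-22536972) was at lines 7, 15, 19 and 15 in HMRdC-tg lists and 6, 25, 13 and 28 in HMRwt-tg lists. Both genes encode proteins of the large ribosomal subunit, and both regions hold CGATA. RpL38, another such gene, was further down, at lines 228, 229, 925 and 237 in HMRdC-tg lists and 121, 308, 157 and 383 in HMRwt-tg lists.

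Of 24 listed genes in pericentromeric chromatin, 18 had a region within 1 kb of a start, 16 in at least 3 lists of each construct and 12 in all 8. Among all 13968 protein-coding genes, 43.3% had a region within 1 kb and 2.69% had one in all 8 lists. The 24 genes were listed with earlier results of these data known, so this contrast is a description and not a test. Dbp80, an RNA helicase gene, had 2 regions and stood high in every list. Its best-placed region was at lines 32, 53, 186 and 48 in HMRdC-tg lists and 18, 70, 42 and 48 in HMRwt-tg lists. The best-placed region at rl, the ERK MAP kinase gene, was at lines 29, 48, 1082 and 140 in HMRdC-tg lists and 21, 111, 285 and 309 in HMRwt-tg lists. Nipped-A, a histone acetyltransferase complex subunit gene, was at lines 46, 77, 321 and 78 in HMRdC-tg lists and 34, 207, 129 and 225 in HMRwt-tg lists. vtd, the gene of the cohesin subunit Rad21, was at lines 49, 83, 764 and 60 in HMRdC-tg lists and 25, 156, 64 and 94 in HMRwt-tg lists. In each of these 4 genes the best-placed region stood lowest in HMRdC-tg replicate 3 among the HMRdC-tg lists. At Dbp80 and rl, with 2 regions each, the best-placed region may differ between lists. The genes lt, Parp1, uex and Set1 were called in 3 of 4 HMRdC-tg lists and 4 of 4 HMRwt-tg lists, and in each case the missing list was HMRdC-tg replicate 3. Tim17b, a mitochondrial import gene, ran the other way, at line 10 in HMRdC-tg replicate 3 and at lines 93, 115 and 80 in HMRdC-tg replicates 1, 2 and 4, against lines 55, 157, 63 and 112 in HMRwt-tg lists. Snap25, Pzl, nvd, spok, scro and CG17684 had no region in any list.

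Of 34 listed chromosome 4 genes, 27 (79.4%) had a region within 1 kb of a start. In at least 3 lists of each construct 19 (55.9%) had one, and in all 8 lists 13 (38.2%). Among all protein-coding genes these shares were 43.3%, 9.09% and 2.69%. These genes, too, were listed with earlier results known, so the contrast is not a test. The promoter of PlexA, a semaphorin receptor gene, was at lines 33, 38, 635 and 129 in HMRdC-tg lists and 30, 93, 39 and 118 in HMRwt-tg lists. RpS3A, a small ribosomal subunit gene, was at lines 148, 141, 1018 and 133 in HMRdC-tg lists and 104, 180, 141 and 160 in HMRwt-tg lists. ATPsynbeta, encoding a subunit of the mitochondrial ATP synthase, had 2 regions. The best-placed in each list was at lines 103, 107, 1476 and 256 in HMRdC-tg lists and 106, 115, 76 and 204 in HMRwt-tg lists. The starts of toy, zfh2, bt, sv, mav, onecut and Gat had no region in any list. The largest difference on chromosome 4 ran toward the truncation, at chr4:835453-835724, 1196 bp from the start of Sox102F, with lines 513, 888, 1019 and 613 in HMRdC-tg lists and lines 520 and 740 in HMRwt-tg replicates 3 and 4.

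The promoter of MtnA, the copper-induced metallothionein gene whose promoter is the source of the pMT vector, was called in all 8 lists (chr3R:9784355-9784667, 141 bp from the start of MtnA and also within 200 bp of CG8500). It was at lines 9, 42, 32 and 9 in HMRdC-tg lists and 56, 57, 3 and 3 in HMRwt-tg lists. Reads from plasmid copies and from the chromosome cannot be told apart here. MtnB, MtnC, MtnD, MtnE and MtnF had no region within 1 kb of a start.

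Of 8 genes of the HMR complex and its partners, 4 (50%) had a region within 1 kb of a start in at least 1 list, near the 43.3% of all protein-coding genes, and 0 in at least 3 lists of each construct, where all protein-coding genes had 9.09%. Hmr itself, Boh1 and Boh2, genes of HMR complex subunits, and the gene of HP1a had no region within 1 kb of a start in any list. Lhr had 1 in HMRdC-tg replicate 1 alone (line 538), and the region within 1 kb of the starts of Nlp and Nph was called in the same list alone (line 2933). The region at gfzf, another hybrid incompatibility gene, was in 1 HMRdC-tg and 2 HMRwt-tg lists. Of 15 insulator protein genes, 13 (86.7%) had a region in at least 1 list. Dref had its region in HMRwt-tg replicate 3 alone, the longest list, and BEAF-32 in HMRdC-tg replicate 1 alone. The genes su(Hw) and pita (13.3%) had one in at least 3 lists of each construct. su(Hw) was at lines 664, 155 and 292 in HMRdC-tg replicates 1, 2 and 4, and at lines 560, 334, 2320 and 406 in HMRwt-tg lists. Of 10 genes of heterochromatin proteins, 9 (90.0%) had a region in at least 1 list. HP1c, HP4, HP6 and ADD1 had theirs in HMRwt-tg replicate 3 alone. Su(var)2-HP2 (10.0%), whose product binds HP1a, had one in at least 3 lists of each construct. Of 3 centromere protein genes, Cenp-C and cal1 had regions in 1 to 2 lists of each construct and cid had none. No gene of these 7 gene lists differed by 3 or more peak lists between constructs. Of all 13968 protein-coding genes 7 did, 3 toward HMRdC-tg and 4 toward HMRwt-tg. At that rate none would be expected among so few listed genes, so their absence says nothing particular about them.

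The few regions called unequally lay far apart in the genome. Those called in 3 HMRdC-tg lists and no HMRwt-tg list were near drongo (lines 387, 1589 and 607 of replicates 1, 3 and 4), in an intron of FucTC, a fucosyltransferase gene on X (lines 1414, 1073 and 653 of replicates 1, 3 and 4), and 3215 bp from Moe on X, the moesin gene (lines 3019, 1612 and 1806 of replicates 1, 2 and 4). Of the 14 regions called in 3 HMRwt-tg lists and no HMRdC-tg list, 5 were pericentromeric and 9 lay on the arms. The highest by mean position was at CG3651 and lncRNA:CR46480 in pericentromeric 2L (chr2L:22121020-22121314), at lines 785, 1274 and 981 of HMRwt-tg replicates 1, 3 and 4. The next was 153 bp from the start of Exo84, an exocyst gene (chr3R:26052260-26052560), at lines 938, 690 and 1548 of HMRwt-tg replicates 1, 2 and 3. HMRwt-tg replicate 3, the longest list, held all 14.

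Of 11083 regions, 3 were in at least 3 more HMRdC-tg than HMRwt-tg lists, and 18 the other way. Of these, 0 and 6 were pericentromeric. All 18 were in HMRwt-tg replicate 3, the longest list. Pericentromeric regions were 1180 of all 11083. However, 950 of these 1180, and 7629 of all regions, were in 1 list and could not reach such a difference. The pericentromeric count was not tested. The largest difference in pericentromeric 3L was an annotated gypsy element inside lovit (chr3L:25574363-25574576), which holds TGCATA. It was in HMRdC-tg replicate 2 (line 542) and in all 4 HMRwt-tg lists (lines 846, 213, 5973 and 1087). gypsy elements carry an array of Su(Hw) sites that acts as an insulator. The region in CG42402 in pericentromeric 3R (chr3R:4081795-4082058) was absent from all HMRdC-tg lists and at lines 1499, 1334 and 699 of HMRwt-tg replicates 1, 3 and 4.

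No difference between constructs in the rank of core regions passed the test. Pericentromeric core regions stood above arm core regions in all 8 lists, with medians of -5.62, -9.51, -4.70 and -5.57 percentage points of the list in HMRdC-tg and -8.57, -13.7, -2.63 and -3.41 points in HMRwt-tg, where below 0 is nearer the top (exact two-sided permutation test, p = 0.800). X core regions stood below arm core regions in all 8 lists, with medians of 7.68, 22.1, 15.8 and 6.41 points in HMRdC-tg and 9.13, 15.5, 3.07 and 8.82 points in HMRwt-tg (exact two-sided permutation test, p = 0.457). Chromosome 4 lay between -5.43 and 3.09 points from the arms in HMRdC-tg lists and between -5.44 and 0.167 points in HMRwt-tg lists (exact two-sided permutation test, p = 0.886).

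Region by region, limma on normal scores of the rank called 0 of 387 core regions higher in HMRdC-tg (0%) and 0 lower (0%) at an adjusted p under 0.05. At an unadjusted p under 0.05 it called 4 of 387, a smaller share than the 0.05 expected if no region differed. An exact permutation test per region called 1 at an unadjusted p under 0.05 and 0 at an adjusted p, which its limit of 0.0286 would not allow for single regions. That region, 2985 bp from Mur11Da on X (chrX:12964718-12965088), was the only one whose groups did not overlap, 0 regions (0%) standing higher and 1 (0.258%) lower in every HMRdC-tg list. It was at lines 1570, 788, 1707 and 792 in HMRdC-tg lists and 537, 422, 1087 and 514 in HMRwt-tg lists, with a difference of -0.90 ± 0.26 normal score units (SE, limma unadjusted p = 0.00697, adjusted p = 1). The differences of largest size did not pass either. They were an intron of Myo81F in pericentromeric 3R (-1.06 ± 0.59, limma adjusted p = 1), with lines 2566, 1566, 1047 and 1822 in HMRdC-tg lists against 914, 1100, 490 and 473 in HMRwt-tg lists, and the start shared by CG1486 and Dd on X (0.94 ± 0.52, limma adjusted p = 1), with lines 528, 957, 54 and 657 in HMRdC-tg lists against 1829, 807, 1289 and 936 in HMRwt-tg lists. RpL17, which encodes a ribosomal protein, gave 0.75 ± 0.46 (limma adjusted p = 1).

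Of the 73 pericentromeric core regions, 25 stood higher and 48 lower in HMRdC-tg lists by the fitted difference, with a median of -0.09 normal score units. Of all 387 core regions, 199 stood higher and 188 lower, with a median of 0.01. On chromosome 4 the counts were 10 and 12, on X 26 and 18, and on the arms 138 and 109. Core regions are sites of the same libraries and not replicates, so these counts are a description, and the splits were not tested. Compared per list, pericentromeric core regions stood 0.738 percentage points further down in HMRdC-tg, relative to arm core regions (exact two-sided permutation test, p = 0.800). With single lists left out this difference ranged from -2.85 to 2.28 points, so its sign was not stable.

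The same chromatin samples also gave anti-FLAG lists, which report the transgene. Their own difference between constructs was not tested here. Pericentromeric peaks were 4.30%, 2.75%, 3.70% and 4.12% of the anti-FLAG lists of HMRdC-tg, against 8.54%, 11.4%, 7.75% and 9.20% of those of HMRwt-tg, taking the 4 chromatin samples in the order of their anti-HMR lists. The anti-FLAG share minus the anti-HMR share was -1.86, -6.22, -7.23 and -3.34 percentage points in HMRdC-tg, below 0 in all 4 samples. In HMRwt-tg it was 0.911, -2.34, -2.82 and -0.695 percentage points, and the constructs overlapped. The means were -4.66 ± 2.49 in HMRdC-tg and -1.24 ± 1.70 in HMRwt-tg (SD, n = 4 each), which did not pass the test (exact two-sided permutation test, p = 0.0857, adjusted p = 0.171 over 2 classes). Every list was also reduced to as many first lines as the shortest of the 16 lists. That cut is shorter than the 1150 lines used above, and pericentromeric peaks were concentrated at the top of the anti-HMR lists. With this cut the anti-FLAG share lay below the anti-HMR share by a larger margin with both constructs, with means of -13.9 in HMRdC-tg and -7.31 in HMRwt-tg. The difference between constructs was then -6.61 percentage points and the groups no longer overlapped (p = 0.0286 by the exact permutation test, the lowest it can give). It was also at that limit without HMRdC-tg replicate 1, at -4.36 percentage points. For chromosome 4 the difference was -0.499 percentage points (exact two-sided permutation test, p = 0.229).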

How the data were processed

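Anti-HMR ChIP-seq of SL2 cells was analysed from peak lists. The authors aligned single-end reads of 50 bp with bowtie2 2.2.9 (genome dm6), kept reads of mapping quality 2 or more with samtools 1.3.1, and called peaks per replicate against input with Homer 4.9 (factor style, F 2, size 200). The deposited lists hold positions alone, with no count or score, so the read depth is unknown, and intervals on shares cover counting error only. All 8 libraries were made with the same kit. Lists were not sorted by position, and the line order was used as the rank, a choice made on earlier knowledge of these files.

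Peaks of the 8 lists were joined at 1 bp overlap. Peaks were placed by their midpoint. Pericentromeric means beyond 21 Mb on 2L, before 5.6 Mb on 2R, beyond 22 Mb on 3L and before 4.1 Mb on 3R. Starts, genes and transposable elements came from Ensembl release 115, and synonyms from RefSeq. Sequences were read from the RefSeq assembly of Release 6. Constructs were set against each other in a two-sided exact permutation test over all 70 divisions of 8 lists into 4 and 4, single regions by Fisher's exact test and by limma 3.58.1 (R 4.3.3), all with Benjamini-Hochberg adjustment. The counting and the limma step were tested on simulated data. Python 3.11.15, numpy 2.4.6 and scipy 1.17.1 were used.

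Regions named were those called in all lists of one construct and none of the other, the one with the largest difference per territory, the 5 highest in all lists, the largest limma differences, those near genes of 7 gene lists, and regions at 3 lists against none. The MtnA region was in the gene lists. Members, gene lists and tests were chosen with earlier results of these data known. Alternatives were each list left out, lists reduced to equal length, mean ranks, other borders, denominators, distances and overlaps, and regions in at least 3 lists of each construct. Restriction to regions in at least 2 lists, and a block of lists with neighbouring input numbers, were added after seeing the data. The 2 anti-FLAG lists made with another kit were not used.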

Additional observations from a re-analysis of the deposited data

Results flagged for a closer look

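Among 48 groups of 4 lists, each 1 measure in 1 construct, 5 held a value further from the nearest other list than Dixon's 95% limit allows. Chance gives about 1 in 20 for independent groups, but these measures come from the same lists and partly overlap. HMRdC-tg replicate 3 had 39.3% of its peaks between genes, against 62.2% to 65.6% in the other HMRdC-tg lists. It also had 23.1% in exons, against 14.0% to 15.5%, and 1.69% in transposable elements, against 0.942% to 1.06%. HMRwt-tg replicate 3 had 21.9% of its peaks in exons, against 14.7% to 15.6% in the other HMRwt-tg lists, and 20.9% with GAGAG, against 15.0% to 15.9%. These 2 lists are also those with the largest shares of regions called nowhere else. The part of these lists in the results was not tested beyond leaving each out.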

How the results depend on the processing

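No difference in shares, ranks or number of peaks had p under 0.05 under any alternative run, except the pericentromeric anti-FLAG share minus the anti-HMR share. It was -6.61 percentage points with lists reduced to equal length (exact permutation test, p = 0.0286) and between -4.36 and -2.57 with 1 anti-HMR list left out, at p = 0.0286 without HMRdC-tg replicate 1. Of 328 alternative values with a test, 2 had p under 0.05. The pericentromeric share itself differed by -3.02 to -0.986 with 1 list left out.

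The labels name no pairs, but input numbers of the constructs adjoin. A replicate block of these 4 sets was added after seeing the data. Deviations of core ranks from the construct mean correlated at 0.0863 to 0.591 within sets and at -0.527 to 0.388 across them. By this measure 5 of 8 lists were closest to their own set. Each construct mean included the list itself, which ties the values across sets to those within sets. The check therefore cannot decide pairing, which was neither taken as given nor excluded. In a paired exact sign-flip test, whose smallest p is 0.125, no result could pass. Of 26 results, 5 were at that limit. X was higher in HMRdC-tg in 4 of 4 sets (1.28 percentage points, exact sign-flip p = 0.125). The pericentromeric share was lower in 3 of 4 (-2.08, exact p = 0.250). Of its territories, 2R (-0.696) and 3R (-0.378) were lower in 4 of 4 (exact p = 0.125 each), and 2L and 3L in 3 of 4. The anti-FLAG share minus the anti-HMR share was lower in 4 of 4 for pericentromeric peaks (-3.43, exact p = 0.125). The same held for chromosome 4 (-0.499, exact p = 0.125). limma with the block called 0 of 387 regions, 9 at an unadjusted p under 0.05.

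Differences without a call often turned sign, given as HMRdC-tg minus HMRwt-tg. Lists of equal length gave -0.0652 percentage points for CGATA, -0.109 for DRE, 1.11 for GAGAG, -0.326 for Motif 1, -1.52 for transcript starts, -0.130 for divergent starts, -3.22 between genes, -0.630 for X and 0.587 for introns, and 2 regions in every HMRwt-tg list alone. Peaks of regions in at least 2 lists, a choice made after seeing the data, gave 0.575 for GAGAG, 0.167 for chromosome 4 and -0.540 for X. With regions in at least 3 lists of each construct, ranks differed by -2.47 on chromosome 4, -3.14 on X and -1.27 in pericentromeric chromatin. The eased count of 3 lists against none gave 3 regions for HMRdC-tg and 14 for HMRwt-tg.

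Leaving out 1 list gave ranges of -0.400 to 0.135 for chromosome 4, -0.812 to 2.68 for arms, -0.174 to 3.002 for X, -0.0590 to 0.00213 for Y, -0.587 to 10.7 for transcript starts, -0.177 to 3.42 for divergent starts, -2.01 to 1.70 for exons, -5.81 to 0.945 for introns, -2.65 to 7.82 between genes, -2.996 to 0.279 for TGCATA, -0.585 to 4.87 for CGATA, -0.161 to 1.75 for Motif 1 and -1.66 to 1.18 for GAGAG. The number of peaks ranged over -2256 to 377, ranks over -2.85 to 2.28 in pericentromeric chromatin, -1.02 to 1.61 on chromosome 4 and -3.19 to 6.05 on X, and regions of 1 construct alone over 0 to 2 for HMRdC-tg and 0 to 8 for HMRwt-tg. The cause was not tested. Read depth is unknown, and 4 lists a construct limit the exact p.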
